A study of Mus musculus with 4 samples.

Results

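CD8 T cells that carried transcripts of *Lef1* or *Ccr7*, here Lef1/Ccr7 cells, were examined in the liver of mice that carried *Stab2-CrexERT2* and *R26-LSL-tdT*. The mice had received tamoxifen at E9.5 and were 2 months old. The Lef1/Ccr7 cells numbered 559 (tdTomato+) and 1197 (tdTomato-), 1756 of the 35682 barcodes kept in both. In these mice an inducible Cre recombinase sits at the endogenous *Stab2* locus, and recombination switches on tdTomato in the marked cell and its descendants. *Stab2* is a scavenger receptor gene of yolk sac and liver sinusoidal endothelium, so the label can also mark endothelium itself. The study sorted tdTomato+ liver cells to profile labelled γδ T cells, and tdTomato- liver cells as their control, with 1 gene expression library and 1 γδ receptor library for each. Every mouse carried both alleles and received tamoxifen, and the number of animals per library is not given in the sources used here. The tdTomato+ libraries were batch 1 and the tdTomato- libraries batch 2, so that sort and batch cannot be told apart.

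The members were chosen by their own counts. A barcode was kept if it held 300 or more genes and no more than 10% of its counts were mitochondrial. It was a Lef1/Ccr7 cell when it held at least 1 count of *Cd3e*, *Cd3d* or *Cd3g*, at least 1 of *Cd8b1*, none of *Cd4*, at most 1 of *Trdc*, at least 2 of *Lef1* plus *Ccr7*, and none of the endothelial genes *Kdr* and *Clec4g*. The Cd8b1 cells with neither *Lef1* nor *Ccr7*, here lacking cells, met the other limits and numbered 181 (tdTomato+) and 395 (tdTomato-). CD4 T cells chosen in the same way, with *Cd4* in place of *Cd8b1*, numbered 511 and 808, and are called CD4 cells. For comparison, B cells held at least 2 counts of *Cd79a*, and Kupffer cells at least 2 of *Clec4f*, with no *Cd3e*, *Cd3d* or *Cd3g* and the same limit on *Kdr* and *Clec4g*. All values are counts of unique molecular identifiers (UMIs), summed over the cells of a group and given as counts per 1000000 of the group's total (CPM). With 1 library per group there is no replicate check and no test was possible. Intervals are exact 95% intervals and cover counting error only. A gene was called higher or lower between groups where it reached 50 CPM in one of them and differed at least 2-fold, in both libraries where both were compared.

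A CD8 T cell that leaves the thymus and has not met antigen is called naive, and circulates between blood and lymphoid organs. LEF1 and TCF1 (*Tcf7*) are related transcription factors that maintain this state, CCR7 guides the cell into lymph nodes, and the interleukin 7 receptor (*Il7r*) keeps it alive. Effector CD8 T cells make granzymes, perforin and chemokines such as CCL5. Memory CD8 T cells can hold both sets in part, and those that recirculate keep CCR7. The liver receives such cells with the blood and also holds resident T cells, often marked by *Cxcr6*.

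The Lef1/Ccr7 cells made up 3.19% (2.94 to 3.46%) of the kept barcodes in the tdTomato+ library and 6.59% (6.23 to 6.96%) in the tdTomato- library. T cells are here kept barcodes with at least 1 count of *Cd3e*, *Cd3d* or *Cd3g*, with no limit on *Kdr* and *Clec4g*. The Lef1/Ccr7 cells, which did meet that limit, were 7.23% (tdTomato+) and 7.48% (tdTomato-) of them. Of the Cd8b1 cells that met the other limits they were 67.5% (64.2 to 70.7%) for tdTomato+ and 67.97% (65.7 to 70.1%) for tdTomato-, with overlapping intervals. The limit on *Kdr* and *Clec4g*, the VEGF receptor and lectin of sinusoidal endothelium, bore on the libraries unequally. It removed 785 tdTomato+ barcodes that met every other limit (58.4%), against 94 tdTomato- barcodes (7.28%). Those removed held a median of 16938 UMIs (tdTomato+) and 11084 (tdTomato-), against 10129 and 9905 in the Lef1/Ccr7 cells of the same libraries. Without that limit the shares of kept barcodes were 7.68% (tdTomato+) and 7.10% (tdTomato-), so the order of the libraries turned round. The barcodes that then met the rule were 1344 (tdTomato+) and 1291 (tdTomato-), beside 7728 and 15996 T cells. The likeness of the T cell shares thus holds only with the limit. The limit on *Trdc*, the δ chain constant gene, removed 7 tdTomato+ and 278 tdTomato- barcodes, and that on *Cd4* 38 and 108.

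In depth the Lef1/Ccr7 cells of both libraries were alike, with medians of 2894 (tdTomato+) and 2966 (tdTomato-) genes and 1.704% and 1.57% mitochondrial counts. Their summed UMIs were 6467966 of 203366009 (tdTomato+) and 14035939 of 156771260 (tdTomato-) file totals. The lacking cells were shallower, with median UMIs of 7282 (tdTomato+) and 5556 (tdTomato-). The labels call both sorts immune cells, but 6768 tdTomato+ and 14 tdTomato- barcodes held at least 2 counts each of *Kdr* and *Clec4g* and no T cell receptor complex count. Of the 84 barcode sequences present in both libraries, 3 belonged to tdTomato+ and 5 to tdTomato- Lef1/Ccr7 cells.

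By the rule, *Lef1* was at 623 CPM (tdTomato+) and 609 CPM (tdTomato-) in the Lef1/Ccr7 cells, and *Ccr7* at 403 (tdTomato+) and 574 CPM (tdTomato-). In mm10 coordinates *Lef1* at chr3:131110471-131224356, *Ccr7* at chr11:99144196-99155077, *Cd8b1* at chr6:71322788-71337494 and *Dapl1* at chr2:59484653-59505020 are the genes that mark the cells. Both *Lef1* and *Ccr7* were counted in 433 tdTomato+ (77.5%) and 1000 tdTomato- cells (83.5%), only *Lef1* in 118 and 178, and only *Ccr7* in 8 and 19. Just inside the limit, 54 tdTomato+ and 101 tdTomato- cells held exactly 2 counts. Just outside it, 88 and 169 held 1 and were left out of both CD8 groups. *Cd8a*, the α chain of the coreceptor, was at 348 CPM (tdTomato+) and 368 CPM (tdTomato-) in the Lef1/Ccr7 cells, against 1.096 and 14.5 CPM in the CD4 cells of the same libraries. *Dapl1*, used as a marker but not by the rule, was at 138 CPM (tdTomato+) and 134 CPM (tdTomato-) in the Lef1/Ccr7 cells, and 33.8% and 33.9% of them held a count of it.

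The cells did not split cleanly at 2 counts, and the levels of several genes went on changing above it along *Lef1* plus *Ccr7*. Over the bins of 0, 1, 2, 3 to 5, 6 to 9 and at least 10 counts, *Satb1*, a chromatin organiser gene of T cells, was at 52.5, 79.8, 111, 275, 441 and 512 CPM in tdTomato+ cells. In tdTomato- cells it stood at 81.1, 110.4, 160.2, 246, 417 and 467 CPM. *Satb1* was thus higher in each bin of more counts, in both libraries, over 54 to 299 tdTomato+ and 101 to 718 tdTomato- cells per bin, and so was *Tcf7*, with 209 CPM (tdTomato+) and 245 CPM (tdTomato-) at 2 counts. *Ccl5*, a chemokine that effector and memory CD8 T cells store as mRNA, was at 12586, 16043, 9003, 4549, 741 and 399 CPM over the same bins in tdTomato+ cells. In tdTomato- cells it stood at 14990.4, 13494, 11540.3, 7601, 1768 and 752 CPM. *Ccl5* was thus lower in each bin of more counts, except that tdTomato+ cells with 1 count lay above those with none. Its largest tdTomato+ step lay between 1 and 2 counts. *Dapl1* at 0, 1 and 2 counts was at 13.6, 4.76 and 29.7 CPM (tdTomato+) and 14.8, 4.57 and 37.7 CPM (tdTomato-). It thus rose at the limit, from few counts, and was at 184 (tdTomato+) and 167 CPM (tdTomato-) in the bin of at least 10. At exactly 2 counts, *Satb1*, *Tcf7* and *Ccl5* were closer to their levels in the lacking cells than to those in the bin of at least 10. *Ly6c2* was closer to the bin of at least 10 in both libraries. About midway lay *Cd8a* in tdTomato+ cells, at 683, 485 and 307 CPM at 0, 2 and at least 10 counts. So did *Gzmb* in tdTomato- cells, at 2118, 1169 and 231 CPM. Of the cells with 2 counts, 81.5% (tdTomato+) and 71.3% (tdTomato-) held at least 10 *Ccl5* counts. Even at 10 or more *Lef1* plus *Ccr7* counts, 7.69% of tdTomato+ and 15.3% of tdTomato- cells did so. *Ly6c2*, a Ly6C gene of memory CD8 T cells, showed no such order within the Lef1/Ccr7 cells, at 825 CPM at 2 counts and 913 CPM at 10 or more in tdTomato+ cells, and 1069.7 and 1063 CPM in tdTomato- cells. Deeper cells reach higher bins, and the median depth of the bins was between 7282 and 10526 UMIs (tdTomato+) and between 5556 and 10487 (tdTomato-). The part of depth in this order was not tested. The data therefore do not bear out the label naive for all of these cells, and they are called by their rule.

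**Figure D1:**
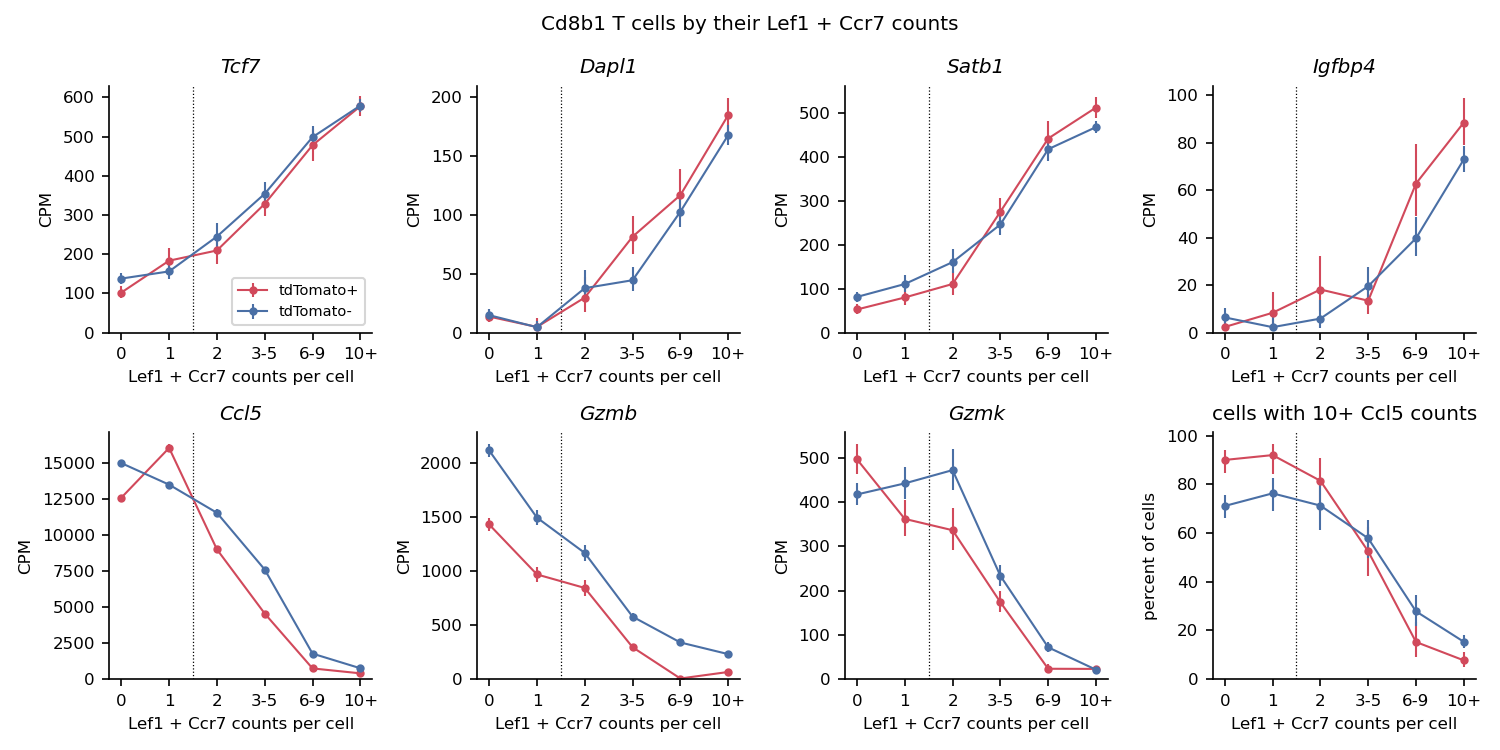
Levels in CPM on linear axes against the bin of Lef1 plus Ccr7 counts per cell, with exact 95% counting intervals, in both libraries, and the share of cells with 10 or more Ccl5 counts. Satb1 was higher and Ccl5 lower toward the bin of 10 or more, and both went on changing above the limit of 2. The largest tdTomato+ step of Ccl5 lay at that limit, between 1 and 2 counts, where Dapl1 rose in both libraries.

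Set against the lacking cells, the Lef1/Ccr7 cells held more transcripts of genes of the naive programme. Of the 18 of 21 listed genes that could be compared, 11 were called higher and none lower, with a median log2 ratio of 1.65 (tdTomato+) and 1.70 (tdTomato-), beside -0.24 and -0.18 over all genes. Over all 3429 genes compared in both libraries, 1.66% were called higher (57 genes) and 3.85% lower (132 genes). Without the limit on *Kdr* and *Clec4g* they were 29 and 48. The rule used these cells' own *Lef1* and *Ccr7* counts, so these values describe the groups and nothing is read from the counts of calls. *Dapl1*, a gene of unsettled function in T cells, was at 138 CPM in Lef1/Ccr7 cells against 13.6 CPM in lacking cells of the tdTomato+ library, and 134 against 14.8 CPM in those of the tdTomato- library. Its log2 ratio was 3.32 (95% interval 2.75 to 4.01) for tdTomato+ and 3.16 (95% interval 2.71 to 3.69) for tdTomato-. Transcription factor genes of the naive state stood with it. *Tcf7* was at 477 CPM in tdTomato+ Lef1/Ccr7 cells against 102 CPM in tdTomato+ lacking cells, with 518 against 138 CPM among tdTomato- cells. *Satb1* was at 416 CPM in Lef1/Ccr7 cells against 52.5 CPM in lacking cells of the tdTomato+ library, and 414 against 81.1 CPM in those of the tdTomato- library. *Bach2*, a repressor of effector genes, was at 324 CPM in tdTomato+ Lef1/Ccr7 cells against 54.3 CPM in tdTomato+ lacking cells, with 292 against 74.7 CPM among tdTomato- cells. *Foxp1*, which maintains quiescence, was at 594 CPM in Lef1/Ccr7 cells against 207 CPM in lacking cells of the tdTomato+ library, and 565 against 266 CPM in those of the tdTomato- library. The folds of *Tcf7*, *Satb1*, *Bach2* and *Foxp1* were 4.66, 7.87, 5.94 and 2.87 (tdTomato+) and 3.76, 5.09, 3.903 and 2.12 (tdTomato-), so each was smaller for tdTomato-.

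Among genes of survival and recirculation, *Il7r* was at 407 CPM in tdTomato+ Lef1/Ccr7 cells against 118 CPM in tdTomato+ lacking cells, with 443 against 147 CPM among tdTomato- cells. The gene of the sphingosine 1-phosphate receptor that draws T cells out of tissue, *S1pr1*, was at 105 CPM in Lef1/Ccr7 cells against 38.4 CPM in lacking cells of the tdTomato+ library, and 126 against 35.9 CPM in those of the tdTomato- library. *Klf2*, the transcription factor that drives *S1pr1*, was at 2152 CPM in tdTomato+ Lef1/Ccr7 cells against 1116 CPM in tdTomato+ lacking cells, with 2755 against 1871 CPM among tdTomato- cells, below the 2-fold limit in both. The remaining genes called higher were *Igfbp4* (62.8 against 2.36 CPM, tdTomato+, and 56.9 against 6.39 CPM, tdTomato-), *Nsg2* (124 against 9.44 CPM, tdTomato+, and 139 against 18.4 CPM, tdTomato-), *Rgs10* (193 against 28.3 CPM, tdTomato+, and 186 against 35.1 CPM, tdTomato-) and *Actn1* (125 against 23.6 CPM, tdTomato+, and 141 against 33.5 CPM, tdTomato-), here given as Lef1/Ccr7 cells against lacking cells. Each of these ratios ran the same way in both libraries. Without the limit on *Kdr* and *Clec4g* the tdTomato+ log2 ratio of *Igfbp4* was -0.28, so its direction turned round there. Outside the list, the largest ratios were those of *Tdrp* (67.7 against 1.77 CPM, tdTomato+, and 64.9 against 2.796 CPM, tdTomato-) and *St8sia1* (51.5 against 2.95 CPM, tdTomato+, and 51.1 against 2.396 CPM, tdTomato-), which encodes the GD3 ganglioside synthase, with few counts in the lacking cells. *St6gal1*, a sialyltransferase gene, was at 59.8 CPM in Lef1/Ccr7 cells against 4.13 CPM in lacking cells of the tdTomato+ library, and 66.4 against 10.4 CPM in those of the tdTomato- library. *Il6ra*, the interleukin 6 receptor gene, was at 81.8 CPM in tdTomato+ Lef1/Ccr7 cells against 11.8 CPM in tdTomato+ lacking cells, with 83.7 against 15.98 CPM among tdTomato- cells.

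At a common depth *Dapl1* kept its order between the CD8 groups, which stayed those chosen at full depth. Cells were thinned to 2000 UMIs, and shallower cells were left out. The 25th percentile of the tdTomato- lacking cells lay below this, at 1831.5 UMIs. *Dapl1* was then counted in 19.7% of tdTomato+ and 17.01% of tdTomato- Lef1/Ccr7 cells, against 1.69% (tdTomato+) and 1.74% (tdTomato-) of lacking cells. The unthinned shares were 33.8% and 33.9% of Lef1/Ccr7 cells against 3.31% and 1.52% of lacking cells. Kupffer cells are liver macrophages and had unthinned median depths of 11470 (tdTomato+) and 9379 (tdTomato-) UMIs. Thinned Kupffer cells held it in 0 of 507 (tdTomato+) and 0 of 126 (tdTomato-), which allows shares of up to 0.592% and 2.38%.

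**Figure D2:**
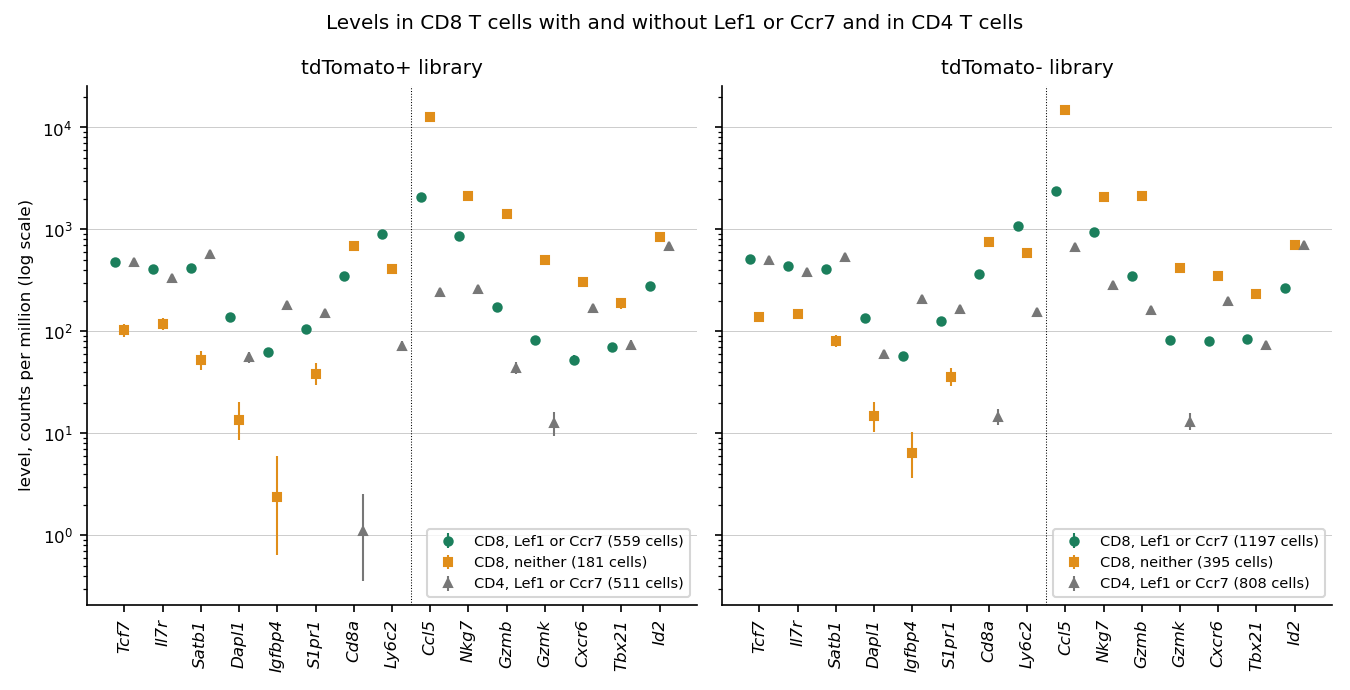
Levels of named genes in CPM on a log axis in Lef1/Ccr7 CD8 T cells, lacking cells and CD4 cells, with exact 95% counting intervals, 1 panel per library. Tcf7 and Satb1 were high in both groups with Lef1 or Ccr7, and Ccl5, Gzmb and Cxcr6 were highest among the CD8 groups in the lacking cells.

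The cytotoxic and effector genes were lower in the Lef1/Ccr7 cells than in the lacking cells. Of 21 compared genes of this list, 13 were called lower and none higher, with a median log2 ratio of -1.82 (tdTomato+) and -1.51 (tdTomato-). *Ccl5* was at 2077 CPM in Lef1/Ccr7 cells against 12586 CPM in lacking cells of the tdTomato+ library, and 2398 against 14990.4 CPM in those of the tdTomato- library. Its log2 ratio was -2.60 (95% interval -2.63 to -2.57) for tdTomato+ and -2.64 (95% interval -2.67 to -2.62) for tdTomato-. *Gzmb*, which encodes granzyme B, was at 173 CPM in tdTomato+ Lef1/Ccr7 cells against 1433 CPM in tdTomato+ lacking cells, with 348 against 2118 CPM among tdTomato- cells. *Gzmk*, the granzyme K gene, was at 81.9 CPM in Lef1/Ccr7 cells against 497 CPM in lacking cells of the tdTomato+ library, and 82.4 against 417 CPM in those of the tdTomato- library. All 3 genes were thus several-fold lower in the Lef1/Ccr7 cells of each library. *Nkg7*, a gene of cytotoxic granules, was at 857 CPM in tdTomato+ Lef1/Ccr7 cells against 2120.2 CPM in tdTomato+ lacking cells, with 945 against 2100.3 CPM among tdTomato- cells. The chemokine gene *Ccl4* was at 252 CPM in Lef1/Ccr7 cells against 1674 CPM in lacking cells of the tdTomato+ library, and 387 against 2549 CPM in those of the tdTomato- library. *Fasl*, the gene of the Fas ligand, was at 27.5 CPM in tdTomato+ Lef1/Ccr7 cells against 166 CPM in tdTomato+ lacking cells, with 39.3 against 218 CPM among tdTomato- cells. *Ifng* was at 199 CPM in Lef1/Ccr7 cells against 569 CPM in lacking cells of the tdTomato+ library, and 162 against 841 CPM in those of the tdTomato- library. These effector transcripts were lower but not absent in the Lef1/Ccr7 cells. Perforin (*Prf1*) and cathepsin W (*Ctsw*) differed less, with log2 ratios of -0.76 and -0.34 (tdTomato+) and -1.07 and -0.52 (tdTomato-). Genes listed as markers of other cells differed in this comparison too. The summed γδ T cell markers (6 of 7 detected in tdTomato+ cells with *Trdc* at 0, 7 of 7 in tdTomato- cells) were at 33.4 against 347 CPM in the tdTomato+ library and 94.6 against 514 CPM in the tdTomato- library, Lef1/Ccr7 against lacking cells. Natural killer markers (7 of 8 in tdTomato+ cells with *Klra8* at 0, 8 of 8 in tdTomato- cells) were at 176 against 346 CPM and 336 against 849.9 CPM in the same order. Macrophage markers were at 329 against 701 CPM (tdTomato+) and 575 against 867 CPM (tdTomato-), dendritic cell markers at 524 against 1444 CPM and 910.1 against 1565 CPM, and endothelial markers at 246 against 229.6 CPM and 190.4 against 180.1 CPM. A γδ marker was counted in 9.66% of Lef1/Ccr7 against 58.01% of lacking cells for tdTomato+, and in 22.4% against 61.8% for tdTomato-. This list holds γ and δ chain genes, and the rule allowed at most 1 *Trdc* count. *Trdc* itself was counted in 0 of 181 tdTomato+ and 53 of 395 tdTomato- lacking cells. A productive γ or δ contig was found in 1 and 16 of them. Of the barcodes that the limit on *Trdc* removed, 0 of 7 (tdTomato+) and 63 of 278 (tdTomato-) had such a contig. A missing contig thus does not show what a cell with a γδ marker count is, and this was not tested. The part of other cells or their RNA in the effector gene ratios was not tested. B cells, which make little *Ccl5*, held 32.6 CPM of it (tdTomato+) and 53.4 CPM (tdTomato-).

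Genes that regulate or mark effector, memory and resident cells followed the effector genes in part. Of 12 regulators, *Tcf7* was called higher and *Tbx21*, *Id2*, *Zeb2* and *Bhlhe40* lower. *Tbx21*, which encodes T-bet, was at 70.7 CPM in tdTomato+ Lef1/Ccr7 cells against 188 CPM in tdTomato+ lacking cells, with 83.2 against 230.4 CPM among tdTomato- cells. *Id2* was at 277 CPM in Lef1/Ccr7 cells against 840.3 CPM in lacking cells of the tdTomato+ library, and 266 against 711 CPM in those of the tdTomato- library. *Eomes*, a T-box gene of memory CD8 T cells, differed little, at 75.9 CPM in tdTomato+ Lef1/Ccr7 cells against 103 CPM in tdTomato+ lacking cells, with 83.1 against 103 CPM among tdTomato- cells. Of 13 memory surface genes, 4 were called lower (*Cxcr3*, *Ccr2*, *Cd48* and *Cd7*) and none higher. *Ly6c2* ran against the list, at 903 CPM in Lef1/Ccr7 cells against 414 CPM in lacking cells of the tdTomato+ library, and 1086 against 592 CPM in those of the tdTomato- library, short of 2-fold in the tdTomato- library. It has a near-identical neighbour, *Ly6c1*, from which its reads may not be told apart in full. *Il2rb*, the interleukin 2 and 15 receptor β chain gene, was at 207 CPM in tdTomato+ Lef1/Ccr7 cells against 241 CPM in tdTomato+ lacking cells, with 183 against 239 CPM among tdTomato- cells. Of 11 residency genes, 6 were called lower. Among them *Cxcr6*, a chemokine receptor gene, was at 52.6 CPM in Lef1/Ccr7 cells against 308 CPM in lacking cells of the tdTomato+ library, and 80.8 against 353 CPM in those of the tdTomato- library. *Itga1*, the gene of the CD49a integrin chain, was at 12.1 CPM in tdTomato+ Lef1/Ccr7 cells against 83.8 CPM in tdTomato+ lacking cells, with 26.9 against 172 CPM among tdTomato- cells. *Rgs1* was at 227 CPM in Lef1/Ccr7 cells against 1020.3 CPM in lacking cells of the tdTomato+ library, and 388 against 1360.3 CPM in those of the tdTomato- library.

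Natural killer receptor, checkpoint and trafficking genes were called lower more often than higher. So were all compared genes, of which 3.85% were called lower and 1.66% higher. Of 6 compared natural killer receptor genes, *Klrc1*, *Klrk1*, *Klre1* and *Tyrobp* were called lower. *Klre1* was at 7.58 CPM in tdTomato+ Lef1/Ccr7 cells against 86.7 CPM in tdTomato+ lacking cells, with 35.5 against 278 CPM among tdTomato- cells. Of 9 checkpoint and costimulation genes, 5 were called lower, among them *Cd244a* (3.09 against 62.6 CPM, tdTomato+, and 13.4 against 87.5 CPM, tdTomato-, Lef1/Ccr7 against lacking cells) and *Cd160* (68.03 against 312 CPM, tdTomato+, and 57.6 against 323 CPM, tdTomato-). Of 15 trafficking genes, *S1pr1* and *Itga6* were called higher and *Cxcr3*, *Cxcr6*, *Ccr2* and *Itgal* lower. Of 15 cytokine receptor genes, *Il7r*, *Il4ra*, *Il6ra* and *Il6st* were called higher, and *Il10ra*, *Il12rb2* and *Tnfrsf1b* lower. Of 15 quiescence genes, *Foxp1* and *Pik3ip1* were called higher and *Runx1* lower. *Pik3ip1*, which encodes an inhibitor of PI3 kinase, was at 100.5 CPM in Lef1/Ccr7 cells against 23.6 CPM in lacking cells of the tdTomato+ library, and 123 against 36.7 CPM in those of the tdTomato- library. Of 7 compared CD8 lineage genes, *Runx1* was again the one called, lower.

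Several lists held no or few called genes. None of the 22 compared genes of the receptor complex and its proximal signalling was called, nor any of 15 class I presentation genes, 25 immediate-early and stress genes, 19 growth and metabolism genes, 17 cell cycle genes or the 1 compared innate T cell gene. Of 21 interferon response genes, *Isg15* and *Mx1* were called lower, and of 5 genes of immaturity and recent thymic exit, *Cd55* was called higher and *Cd38* lower. *Mki67*, a proliferation gene, was at 124 CPM in tdTomato+ Lef1/Ccr7 cells against 345 CPM in tdTomato+ lacking cells, with 137 against 233 CPM among tdTomato- cells. The median log2 ratio of the cell cycle genes was -1.15 (tdTomato+) and -0.50 (tdTomato-). Ribosomal protein genes held 284824 CPM in the tdTomato+ Lef1/Ccr7 cells against 174400 CPM in the tdTomato+ lacking cells, and 262049 against 156550 CPM in those of the tdTomato- library. Of their 80 compared genes 2 (*Rps20* and *Rps19*) were called higher, with a median log2 ratio of 0.68 (tdTomato+) and 0.73 (tdTomato-). CPM values are shares of a total, so the ribosomal share enters every other gene's value. Of the called genes 30.2% were higher, against 54.0% with ribosomal protein and mitochondrial genes left out of the total and 47.1% with scaling by the median ratio.

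Within the Lef1/Ccr7 cells, *Ccl5* (mm10, chr11:83525778-83530518) was spread unevenly over cells. No *Ccl5* count was found in 337 tdTomato+ (60.3%, 56.1 to 64.4%) and 586 tdTomato- cells (48.96%, 46.1 to 51.8%). At least 10 were found in 136 tdTomato+ (24.3%, 20.8 to 28.1%) and 337 tdTomato- cells (28.2%, 25.6 to 30.8%), against 0.402% and 0.578% of B cells at median depths of 6362 and 5841 UMIs. Among CD4 cells the shares were 5.09% (tdTomato+) and 11.9% (tdTomato-), and among lacking cells 90.1% and 71.1%. The highest single Lef1/Ccr7 cell held 474 *Ccl5* counts (tdTomato+) and 499 (tdTomato-). The cells between these ends, with 1 to 9 counts, numbered 86 tdTomato+ and 274 tdTomato-.

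**Figure D3:**
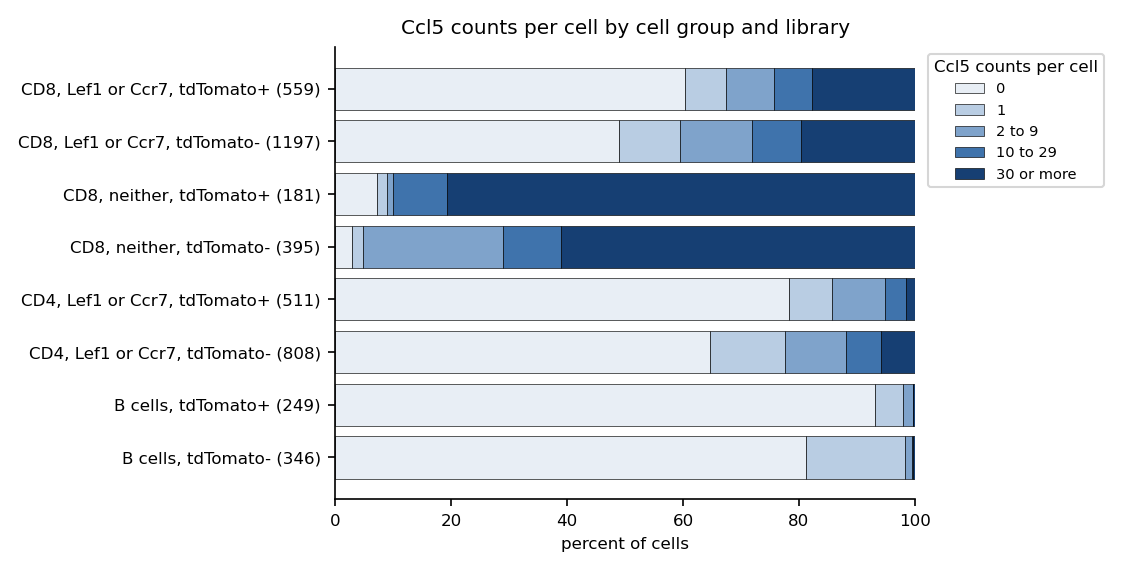
Percent of cells by their number of Ccl5 counts, as stacked bars for Lef1/Ccr7 CD8 T cells, lacking cells, CD4 cells and B cells of both libraries, with the number of cells beside each bar. Lef1/Ccr7 cells were most often at 0 counts, with a further group at 30 or more, where most lacking cells stood.

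The cells with at least 10 *Ccl5* counts, here Ccl5-high cells, were set against those with none, here Ccl5-zero cells. This split was chosen after the values were seen, and it uses the cells' own counts, so its values are a description. Over 3255 genes compared in both libraries, 4.45% were called higher (145 genes) and 0.891% lower (29 genes). Effector genes other than *Ccl5* were higher in the Ccl5-high cells, 15 of the 19 compared. *Gzmb* was at 457 CPM in Ccl5-high cells against 14.8 CPM in Ccl5-zero cells of the tdTomato+ library, and 945 against 25.8 CPM in those of the tdTomato- library. *Gzmk* was at 274 CPM in tdTomato+ Ccl5-high cells against 0.593 CPM in tdTomato+ Ccl5-zero cells, with 239.9 against 4.61 CPM among tdTomato- cells. *Klrg1*, a receptor gene of effector cells, was at 55.5 CPM (tdTomato+) and 50.4 CPM (tdTomato-) in Ccl5-high cells, against 0 counts in the Ccl5-zero cells, which allows up to 0.889 CPM (tdTomato+) and 0.512 CPM (tdTomato-) at 3 counts over the group. *Klrc1*, which encodes NKG2A, was at 175 CPM in Ccl5-high cells against 10.1 CPM in Ccl5-zero cells of the tdTomato+ library, and 252 against 11.6 CPM in those of the tdTomato- library. Of 13 memory surface genes 7 were called higher. Of these *Cxcr3* was at 182 CPM in tdTomato+ Ccl5-high cells against 42.4 CPM in tdTomato+ Ccl5-zero cells, with 188 against 58.6 CPM among tdTomato- cells. *Cd44*, an adhesion receptor gene of activated cells, was at 117 CPM in Ccl5-high cells against 40.6 CPM in Ccl5-zero cells of the tdTomato+ library, and 119.9 against 49.3 CPM in those of the tdTomato- library. The integrin gene *Itgb1* was at 422 CPM in tdTomato+ Ccl5-high cells against 66.1 CPM in tdTomato+ Ccl5-zero cells, with 275 against 70.7 CPM among tdTomato- cells.

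Genes listed as markers of other cells also differed across this split. Natural killer markers were at 320 against 101 CPM (tdTomato+) and 597 against 137 CPM (tdTomato-), Ccl5-high against Ccl5-zero cells. The γδ markers were at 60.8 against 14.8 CPM (tdTomato+) and 211 against 36.5 CPM (tdTomato-), and a count of them was found in 42.7% against 11.9% of tdTomato- cells. *Trdc* itself was counted in 13.6% against 4.78% of those tdTomato- cells, and in 0 of 136 and 0 of 337 tdTomato+ cells. Macrophage markers were at 426 against 297 CPM (tdTomato+) and 822 against 169 CPM (tdTomato-), and dendritic cell markers at 464 against 492 CPM and 1389.7 against 307 CPM. The 3 highest Ccl5-high cells held 91.2% (tdTomato+) and 54.5% (tdTomato-) of their macrophage marker counts. *Tyrobp*, *Fcer1g* and *Lyz2* were called higher in the Ccl5-high cells, and the part of such cells or their RNA in the split was not tested. Cell cycle genes were higher in the Ccl5-high cells too, 13 of 18 compared. *Mki67* was at 284 CPM in Ccl5-high cells against 19.6 CPM in Ccl5-zero cells of the tdTomato+ library, and 249 against 39.4 CPM in those of the tdTomato- library. *Top2a*, the mitotic topoisomerase gene, was at 402 CPM in tdTomato+ Ccl5-high cells against 33.2 CPM in tdTomato+ Ccl5-zero cells, with 280.1 against 59.1 CPM among tdTomato- cells. At least 2 counts of *Mki67* plus *Top2a* were found in 21.3% of tdTomato+ Ccl5-high against 4.75% of tdTomato+ Ccl5-zero cells, and in 17.8% against 4.95% of those of the tdTomato- library. The Ccl5-high cells were deeper, with median UMIs of 11588 against 9418 (tdTomato+) and 10851 against 9305 (tdTomato-). Of 19 naive programme genes, *Dapl1*, *Igfbp4*, *Actn1*, *Treml2* and *Rgs10* were called lower in the Ccl5-high cells. *Dapl1* was at 58.1 CPM in Ccl5-high cells against 202 CPM in Ccl5-zero cells of the tdTomato+ library, and 52.5 against 206 CPM in those of the tdTomato- library. *Ccr7*, one of the rule's genes, was at 128 CPM in tdTomato+ Ccl5-high cells against 556 CPM in tdTomato+ Ccl5-zero cells, with 283 against 772 CPM among tdTomato- cells. *Tcf7* was at 357 CPM in Ccl5-high cells against 551 CPM in Ccl5-zero cells of the tdTomato+ library, and 358 against 614 CPM in those of the tdTomato- library. *Ly6c2* was at 971 CPM in tdTomato+ Ccl5-high cells against 828 CPM in tdTomato+ Ccl5-zero cells, with 1127 against 1053 CPM among tdTomato- cells.

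A second split took the cells with at least 2 counts of *Il2rb*, *Cxcr3* and *Ccl5* summed against those with none. Over 3169 genes compared in both libraries, 3.41% were called higher (108 genes) and 0.631% lower (20 genes). It placed 339 tdTomato+ (60.6%) and 808 tdTomato- cells (67.5%) on the higher side, but 30.5% and 41.5% of CD4 cells met it as well. *Il2rb* alone was about as high in CD4 cells, at 238 (tdTomato+) and 203 CPM (tdTomato-), as in Lef1/Ccr7 cells, at 207 and 183 CPM. The genes called higher held 14 of 17 effector and 13 of 15 cell cycle genes. Both splits use the *Ccl5* counts of the same cells, so the second is no separate check of the first. Of its 108 genes called higher, 83 were also called so with at least 10 *Ccl5* counts against 0. Median UMIs on its higher and lower sides were 11610 against 8131 (tdTomato+) and 10894 against 7681 (tdTomato-). The part of depth was not tested.

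The Lef1/Ccr7 CD8 cells and the CD4 cells shared most of the naive programme. Of 19 compared genes, *Dapl1* was called higher in the CD8 cells, *Igfbp4* and *Trib2* lower, and the median log2 ratio was -0.19 (tdTomato+) and 0.04 (tdTomato-), beside -0.10 and -0.08 over all genes. Of 3289 genes compared in both libraries, 1.03% were called higher in the Lef1/Ccr7 CD8 cells (34 genes) and 1.73% lower (57 genes). *Dapl1* was at 138 CPM in Lef1/Ccr7 cells against 55.5 CPM in CD4 cells of the tdTomato+ library, and 134 against 60.3 CPM in those of the tdTomato- library. *Igfbp4*, which encodes an insulin-like growth factor binding protein, was at 62.8 CPM in tdTomato+ Lef1/Ccr7 cells against 181 CPM in tdTomato+ CD4 cells, with 56.9 against 207 CPM among tdTomato- cells. *Tcf7* was at 477 CPM in Lef1/Ccr7 cells against 480.2 CPM in CD4 cells of the tdTomato+ library, and 518 against 505 CPM in those of the tdTomato- library. The lineages parted on *Cd8a* by the rule's choice of coreceptor, and on *Cd40lg*, the CD40 ligand gene of helper cells, at 1.55 CPM in tdTomato+ Lef1/Ccr7 cells against 165 CPM in tdTomato+ CD4 cells, with 5.13 against 180.2 CPM among tdTomato- cells. *Izumo1r*, the folate receptor 4 gene, was at 20.7 CPM in Lef1/Ccr7 cells against 166 CPM in CD4 cells of the tdTomato+ library, and 19.8 against 159 CPM in those of the tdTomato- library. *Zbtb7b*, the gene of the CD4 lineage factor ThPOK, was at 2.32 CPM in tdTomato+ Lef1/Ccr7 cells against 28.5 CPM in tdTomato+ CD4 cells, with 2.78 against 31.96 CPM among tdTomato- cells, below the level minimum.

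Of 13 memory surface genes, *Ly6c2* was called higher in the CD8 cells and *Ccr2* and *Ly6c1* lower. Of 12 regulators, *Eomes* and *Runx2* were called higher and *Id2* lower, and of 10 residency genes none higher and *Cxcr6* and *P2rx7* lower. *Eomes* was at 75.9 CPM in Lef1/Ccr7 cells against 4.38 CPM in CD4 cells of the tdTomato+ library, and 83.1 against 4.58 CPM in those of the tdTomato- library. *Ly6c2* was at 903 CPM in tdTomato+ Lef1/Ccr7 cells against 72.6 CPM in tdTomato+ CD4 cells, with 1086 against 156 CPM among tdTomato- cells. Its neighbour *Ly6c1* ran the other way, at 1.08 CPM in Lef1/Ccr7 cells against 83.5 CPM in CD4 cells of the tdTomato+ library, and 2.64 against 91.7 CPM in those of the tdTomato- library. Of 18 effector genes, 8 were called higher in the CD8 cells. *Ccl5* was at 2077 CPM in tdTomato+ Lef1/Ccr7 cells against 246 CPM in tdTomato+ CD4 cells, with 2398 against 679.8 CPM among tdTomato- cells. *Gzmk* was at 81.9 CPM in Lef1/Ccr7 cells against 12.5 CPM in CD4 cells of the tdTomato+ library, and 82.4 against 13.03 CPM in those of the tdTomato- library. *Prf1* was at 60.9 CPM in tdTomato+ Lef1/Ccr7 cells against 15.1 CPM in tdTomato+ CD4 cells, with 75.5 against 20.5 CPM among tdTomato- cells. *Crtam*, a receptor gene of cytotoxic T cells, was at 63.9 CPM in Lef1/Ccr7 cells against 9.64 CPM in CD4 cells of the tdTomato+ library, and 60.5 against 6.75 CPM in those of the tdTomato- library. Lower in the CD8 cells were *Il4* (0.309 against 67.9 CPM, tdTomato+, and 1.496 against 61.6 CPM, tdTomato-), *Zbtb16* (5.26 against 89.2 CPM, tdTomato+, and 4.35 against 95.4 CPM, tdTomato-) and *Maf* (9.59 against 90.96 CPM, tdTomato+, and 13.04 against 106 CPM, tdTomato-), given as Lef1/Ccr7 CD8 cells against CD4 cells. *Zbtb16* encodes PLZF, the factor of innate-like T cells, and *Il4* is a cytokine gene of helper and innate-like T cells. The CD4 group was chosen by counts alone and may hold several kinds of CD4 T cell.

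Between the libraries, the Lef1/Ccr7 cells differed little. Of 3207 compared genes, 3 were called higher in the tdTomato+ cells (0.0935%) and 15 lower (0.468%), with a median log2 ratio of -0.04 over all genes. Without the limit on *Kdr* and *Clec4g*, 567 genes were called higher. None of 18 naive programme genes was called, with a median of -0.12. *Lef1* was at 623 CPM (tdTomato+) and 609 CPM (tdTomato-), a log2 ratio of 0.03 (95% interval -0.02 to 0.09). *Dapl1* was at 138 CPM (tdTomato+) and 134 CPM (tdTomato-), a log2 ratio of 0.04 (95% interval -0.07 to 0.16). *Ccr7* was at 403 CPM (tdTomato+) and 574 CPM (tdTomato-), a log2 ratio of -0.51 (95% interval -0.58 to -0.45), short of 2-fold. In this comparison the rule treats both libraries alike, but with 1 library each and sort tied to batch, a difference cannot be given to either. *Klf2* was at 2152 CPM (tdTomato+) and 2755 CPM (tdTomato-), a log2 ratio of -0.36 (95% interval -0.38 to -0.33). *Cxcr4* was at 88.7 CPM (tdTomato+) and 173 CPM (tdTomato-), a log2 ratio of -0.96 (95% interval -1.09 to -0.83). *Cxcr4* encodes the receptor for CXCL12.

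Of the 15 genes called lower in the tdTomato+ cells, 7 (*Ngp*, *Camp*, *S100a8*, *S100a9*, *Hba-a1*, *Hbb-bs* and *Hbb-bt*) are genes of neutrophils and red cell precursors. They came from few droplets. The 3 highest tdTomato- Lef1/Ccr7 cells held 99.3% of the neutrophil marker counts and 99.7% of the erythroid ones. At least 10 counts of these markers were found in 7 tdTomato- and 0 tdTomato+ Lef1/Ccr7 cells. With those 7 cells left out, an alternative added after the data were seen, 4 of 3198 genes were called higher (0.125%) and 4 lower (0.125%). *Ly6a*, *Irf2bp2* and *Ms4a6c* stayed called higher and were joined by *H3c3*, a histone gene. *Ms4a6c*, a membrane protein gene of macrophages, was at 78.1 CPM (tdTomato+) and 37.8 CPM (tdTomato-) in all Lef1/Ccr7 cells. *Cwc22*, *Tpm3-rs7*, *Tyrobp* and *Gzma* stayed called lower.

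*Ly6a* (mm10, chr15:74994877-74998031), which encodes the surface protein Sca-1, was at 459 CPM (tdTomato+) and 213 CPM (tdTomato-) in Lef1/Ccr7 cells, a log2 ratio of 1.11 (95% interval 1.04 to 1.19). It was also higher in tdTomato+ than tdTomato- lacking cells (531 and 327 CPM), CD4 cells (531 and 439.8), B cells (398 and 348) and Kupffer cells (911 and 403). Sinusoidal endothelium can also make *Ly6a*, at a level not given here. Summed endothelial markers were at 246 (tdTomato+) and 190.4 CPM (tdTomato-) in Lef1/Ccr7 cells, and at 278 and 218 CPM in B cells. The part of endothelial RNA in the result was not tested. *Irf2bp2* was at 70.04 CPM (tdTomato+) and 31.99 CPM (tdTomato-), a log2 ratio of 1.13 (95% interval 0.94 to 1.32), and in B cells it was at 71.9 (tdTomato+) and 31.4 CPM (tdTomato-). *Cwc22* was at 81.01 CPM (tdTomato+) and 202 CPM (tdTomato-) in Lef1/Ccr7 cells, and also lower in the tdTomato+ B cells (123 and 172 CPM) and Kupffer cells (50.1 and 266 CPM). *Tpm3-rs7* was at 14.1 and 70.5 CPM in tdTomato+ and tdTomato- Lef1/Ccr7 cells, and at 12.9 and 76.7 CPM in the CD4 cells of those libraries, and in B cells at 13.1 (tdTomato+) and 37.2 CPM (tdTomato-). *Cwc22* and *Tpm3-rs7* have near-identical copies in the mouse genome, so their counts are uncertain. *Ly6a*, *Irf2bp2*, *Cwc22* and *Tpm3-rs7* thus differed in the same direction in Lef1/Ccr7 cells and in B cells of the 2 libraries. In size the B cell difference was about the same for *Irf2bp2* alone. It was smaller for *Cwc22* and *Tpm3-rs7*, and slight for *Ly6a*.

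Of the granzyme genes, *Gzma* and *Gzmb* were called lower in the tdTomato+ Lef1/Ccr7 cells, whereas *Gzmk* was at like levels in both libraries. *Gzma* was at 157 CPM (tdTomato+) and 388 CPM (tdTomato-), a log2 ratio of -1.30 (95% interval -1.40 to -1.21), with 32.7% of the tdTomato+ *Gzma* counts in 1 cell. *Gzmb* was at 173 CPM (tdTomato+) and 348 CPM (tdTomato-), a log2 ratio of -1.004 (95% interval -1.10 to -0.91), at the 2-fold limit, and it was no longer called with the 7 cells left out. In the lacking cells *Gzmb* was at 1433 (tdTomato+) and 2118 CPM (tdTomato-). *Ccl5* was at 2077 CPM (tdTomato+) and 2398 CPM (tdTomato-), a log2 ratio of -0.21 (95% interval -0.24 to -0.18). *Tyrobp*, the gene of an adaptor of natural killer and myeloid receptors, was at 36.2 and 98.3 CPM in tdTomato+ and tdTomato- Lef1/Ccr7 cells. Of 18 effector genes compared, *Gzma* and *Gzmb* were the 2 called, and of 15 trafficking, 13 cell cycle and 20 interferon response genes none was.

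**Figure D4:**
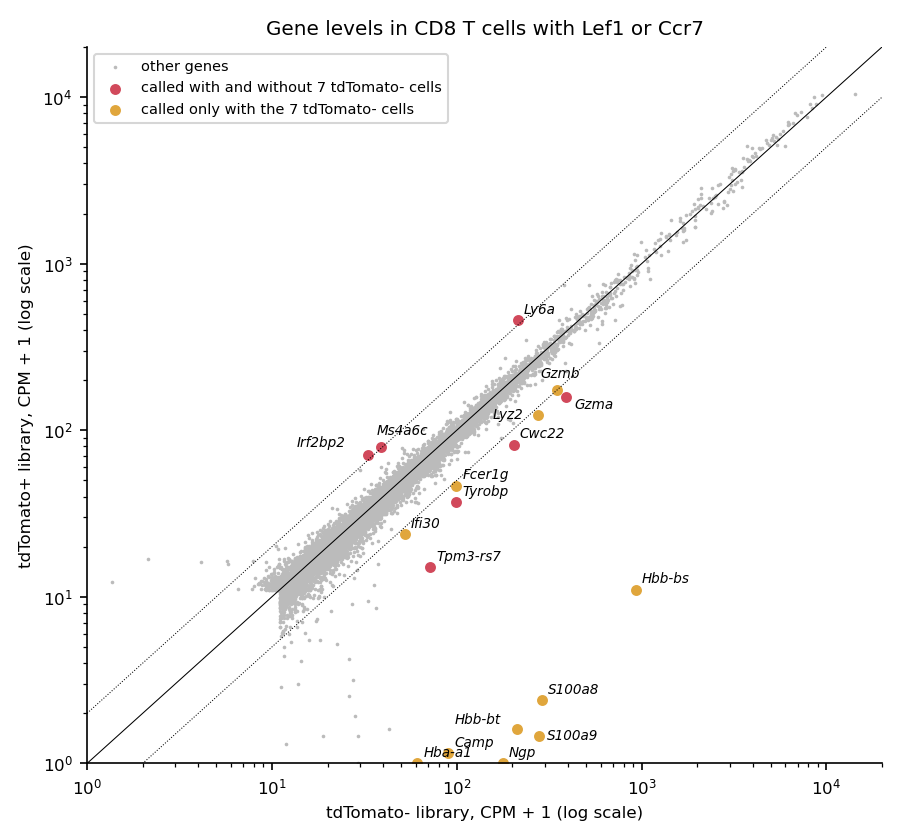
Level of each compared gene in tdTomato+ against tdTomato- Lef1/Ccr7 CD8 T cells, in CPM on log axes, with lines at 2-fold. Most genes lie along the diagonal, and the haemoglobin and neutrophil genes far from it were called only with 7 tdTomato- cells included.

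Genes listed as markers of other cells were counted in the Lef1/Ccr7 cells, but not every such count need come from another cell. The natural killer list holds *Eomes*, also a gene of memory CD8 T cells. The endothelial list holds *Pecam1*, which was called higher in the Lef1/Ccr7 than in the lacking cells. The summed endothelial markers (19 of 21 detected in each library, with *Kdr* and *Clec4g* at 0 by the rule) were at 246 CPM (tdTomato+) and 190.4 CPM (tdTomato-) in Lef1/Ccr7 cells, and *Stab2* alone at 15.8 and 1.14 CPM. B cell markers (9 of 9 detected) were at 168 and 195 CPM in tdTomato+ and tdTomato- cells, macrophage markers (12 of 12) at 329 and 575 CPM, and dendritic cell markers (6 of 8 in tdTomato+, 8 of 8 in tdTomato-) at 524 and 910.1 CPM. Natural killer markers (7 and 8 of 8) were at 176 and 336 CPM and γδ markers (6 and 7 of 7) at 33.4 and 94.6 CPM. Hepatocyte markers were at 7.42 and 6.13 CPM, and platelet markers at 0 (up to 0.464 CPM allowed by 3 counts) and 1.14 CPM. Neutrophil markers were at 3.401 and 596 CPM and erythroid ones at 11.1 and 1223 CPM. The myeloid and natural killer sums were higher in the tdTomato- cells, on the side of *Tyrobp*, *Lyz2*, *Fcer1g* and *Ifi30*, and their part in those results was not tested. With the 7 cells left out *Tyrobp* alone of these was called, and without droplets of high counts the log2 ratio of *Lyz2* was 1.18. With the 9 genes of a short endothelial, B cell and macrophage panel also required to be at 0, the share of kept barcodes was 2.00% (tdTomato+) and 5.51% (tdTomato-).

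The αβ receptor gives a readout that the rule did not use. A β chain variable segment was called, from at least 2 UMIs and more than any other, in 510 of 559 tdTomato+ (91.2%) and 1083 of 1197 tdTomato- Lef1/Ccr7 cells (90.5%). The cells used 20 segments (tdTomato+) and 22 (tdTomato-). The most used, in tdTomato+ and tdTomato- cells with a call, were *Trbv1* in 59 (11.6%) and 127 (11.7%), *Trbv5* in 58 (11.4%) and 125 (11.5%), *Trbv13-1* in 57 (11.2%) and 138 (12.7%), *Trbv12-2* in 46 (9.02%) and 97 (8.96%) and *Trbv4* in 41 (8.04%) and 82 (7.57%). The effective number of segments, 1 over the sum of their squared shares, was 13.3 in tdTomato+ and 12.6 in tdTomato- Lef1/Ccr7 cells, against 11.4 and 10.1 in the fewer lacking cells. *Trbv19* was called in 25 (4.902%) tdTomato+ and 26 (2.401%) tdTomato- cells, and *Trbv17* in 17 (3.33%) and 17 (1.57%), both picked after their values were seen. An α chain segment was called in 416 tdTomato+ and 896 tdTomato- cells, with effective numbers of 35.1 and 39.01. *Trav11*, the α segment of invariant natural killer T cells, was called in 0 of these cells in either library, which allows shares of up to 0.721% (tdTomato+) and 0.335% (tdTomato-). At least 2 UMIs of each of 2 β segments were found in 22.7% of tdTomato+ and 29.6% of tdTomato- Lef1/Ccr7 cells. Of 249 tdTomato+ and 346 tdTomato- B cells 0 did, which allows up to 1.205% and 0.867%, and no cell was removed as a doublet on that ground. Segment counts share reads among similar segments, and clones cannot be told from them.

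**Figure D5:**
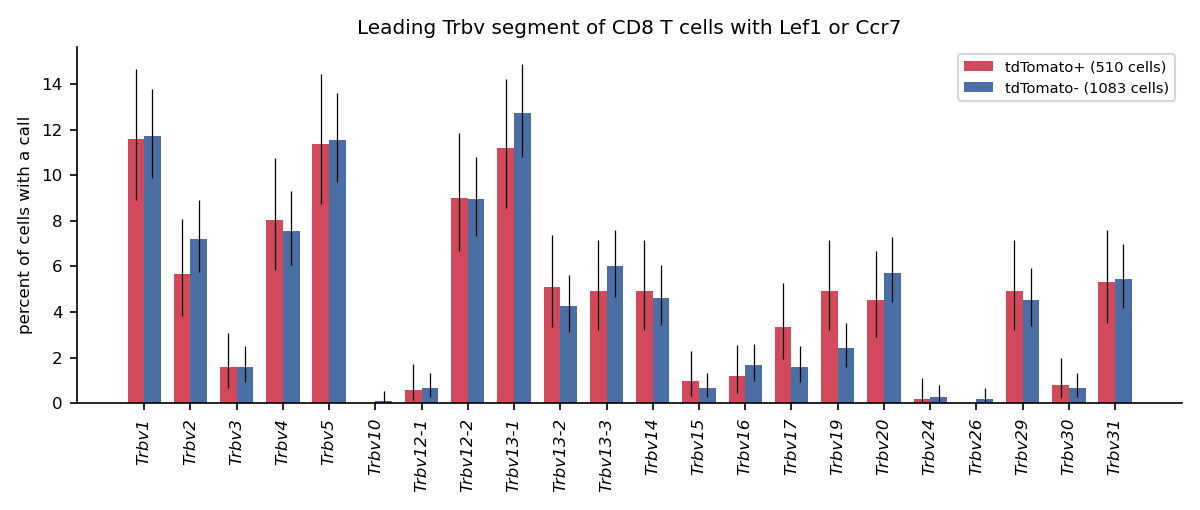
Share of Lef1/Ccr7 CD8 T cells with a call that used each β chain variable segment, in percent, with exact 95% binomial intervals, tdTomato+ and tdTomato- side by side. Trbv1, Trbv5 and Trbv13-1 led in both libraries.

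A few Lef1/Ccr7 cells also carried a productive γ or δ chain contig from the receptor libraries, which hold γ and δ chains only. They were 1 of 559 tdTomato+ (0.179%, 0.00453 to 0.993%) and 21 of 1197 tdTomato- cells (1.75%, 1.09 to 2.67%). Over all kept barcodes the shares were 0.754% (tdTomato+) and 13.9% (tdTomato-), and in the lacking cells 1 of 181 and 16 of 395. Cells with more than 1 *Trdc* count were left out by the rule. A *Trdc* count was found in 0 of 559 tdTomato+ Lef1/Ccr7 cells, which allows a share of up to 0.537%, and in 88 of 1197 tdTomato- ones (7.35%), against 0.402% and 1.16% of the B cells of those libraries. Of the 21 tdTomato- cells with a contig, 12 had a γ chain only, 3 a δ chain only and 6 both. Counts were also found in 20 of the 21 cells for the α or β constant genes, and 18 held at least 10 *Ccl5* counts. Their depth ran from 7293 over a median of 15916 to 51377 UMIs. Of the γ contigs 9 used TRGV4, 4 TRGV1, 4 TRGV2 and 2 TRGV7, and of the δ contigs 7 used TRDV2-2 and 2 TRDV5.

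Their junction sequences (CDR3, 5′ to 3′) are shown because repeats and near-repeats among so few cells bear on how they are counted. Capitals mark the 1 base at which the members of each of 2 pairs of the same V and J gene differ. The γ genes lie on mouse chromosome 13 and the δ genes on chromosome 14.
TRGV4-TRGJ1, 3 tdTomato- cells: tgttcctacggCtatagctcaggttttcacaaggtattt
TRGV4-TRGJ1, 1 tdTomato- cell: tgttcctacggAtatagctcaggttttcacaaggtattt
TRGV4-TRGJ1, a longer junction in 1 tdTomato- cell: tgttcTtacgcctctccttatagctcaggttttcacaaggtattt
TRGV4-TRGJ1, the longer junction in 1 other tdTomato- cell: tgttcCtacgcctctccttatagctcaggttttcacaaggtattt
TRDV2-2-TRDJ1, 2 tdTomato- cells: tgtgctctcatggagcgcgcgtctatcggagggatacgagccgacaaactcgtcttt
TRGV2-TRGJ2, the 1 tdTomato+ cell: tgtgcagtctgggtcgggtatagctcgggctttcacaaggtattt

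The TRGV4 junction of 39 bases was found in 3 tdTomato- Lef1/Ccr7 cells, and the TRDV2-2 junction of 57 bases in 2. Every other junction was seen once. Whether cells with a shared junction were related was not tested.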

How the data were processed

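The gene expression matrices deposited by the authors hold, for each gene and barcode, raw UMI counts from 10x Chromium 5′ libraries, with Cell Ranger 10.0.0 in the matrix header and mm10 in the submitters' processing notes. Counting settings are not given in the sources used here. The deposited contig tables hold UMI counts per assembled γ or δ chain. Of 33696 genes, 31961 had their ID in GENCODE M21, which gave the coordinates. The work used scipy 1.17.1, pandas 2.3.3, matplotlib 3.10.9 and numpy 2.4.6 under Python 3.11.15. The files give no replicates, so groups of cells were summed per library and compared as ratios with 0.5 counts added, and exact Poisson, binomial and conditional binomial intervals at 95% were computed. The genes the rule used and receptor segments were left out of the counts of calls. A few genes are not reported here and were left out of the gene lists, though not of the counts over all genes. Members and gene lists were chosen with earlier results of these data known. Named were the rule's genes and markers, of each list all genes that reached 50 CPM if few, else the highest and those called in both libraries, the 10 largest ratios each way per comparison, and the 5 most used segments, and the text gives those that carry each comparison. No doublet caller was run. Doublets were treated by the limit on *Kdr* and *Clec4g*, by a marker panel and by leaving out droplets of high counts. Alternatives changed the rule's limits, depth, scaling, pseudocount, level minimum and fold limit. The authors' own comparisons were not used.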

Additional observations from a re-analysis of the deposited data

Results flagged for a closer look

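In 7 genes a ratio of at least 2-fold ran opposite ways in the 2 libraries. The difference between libraries was not tested for any of them, since each has 1 library. *Xcl1*, the gene of the chemokine lymphotactin, had a log2 ratio of -1.34 in tdTomato+ and 1.64 in tdTomato- Ccl5-high against Ccl5-zero cells. It was at 146 CPM in Ccl5-high against 370 CPM in Ccl5-zero cells of the tdTomato+ library, and at 272 against 87.2 CPM in those of the tdTomato- library. A single tdTomato+ Lef1/Ccr7 cell held 812 of the 1749 tdTomato+ *Xcl1* counts. Against the CD4 cells, 3 haemoglobin genes ran opposite ways. *Hba-a1* had log2 ratios of -10.92 (tdTomato+) and 4.40 (tdTomato-), *Hbb-bt* of -10.00 and 6.57, and *Hbb-bs* of -8.02 and 4.35. A single tdTomato+ CD4 cell held 16224 of the 16267 erythroid marker counts of its group, and the 3 highest tdTomato- Lef1/Ccr7 cells held 99.7% of theirs. *Hba-a1* had 0 counts in the tdTomato+ Lef1/Ccr7 cells, so the size of its ratio there rests on the 0.5 counts added. In the split on *Il2rb*, *Cxcr3* and *Ccl5*, 3 complement genes of Kupffer cells did so. *C1qa* had log2 ratios of -1.99 (tdTomato+) and 4.22 (tdTomato-), *C1qb* of -1.23 and 4.01, and *C1qc* of -1.48 and 4.52. The 3 highest Lef1/Ccr7 cells held 43.6% (tdTomato+) and 30.6% (tdTomato-) of the macrophage marker counts.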

How the results depend on the processing

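Each comparison had 1 library per group, so the sort, the batch and the animals cannot be told apart, and the intervals hold no spread between mice. No paired analysis was possible because each group had 1 library. Of 134 values of main results under an alternative, 79 stayed within their interval or within 1.5 times the count and 55 moved. These values are shares and counts of genes, for which no reversal was defined. Without the limit on *Kdr* and *Clec4g* the order of the libraries in the share of kept barcodes turned round. Of 1778 values of single genes, 1398 stayed, 365 moved and 15 reversed, and 4 more (*Ngp* and *Camp* between the libraries) could not be given, with 0 counts in both groups. The cause was not tested, except where fewer cells or genes follow from the alternative itself.

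The share of kept barcodes (tdTomato+, then tdTomato-) was 3.70% and 7.52% from 1 count of *Lef1* plus *Ccr7*, 2.88% and 6.03% from 3, 2.00% and 5.51% with the marker panel at 0, 7.68% and 7.10% without the limit on *Kdr* and *Clec4g*, and 1.81% and 4.62% with every barcode thinned first. The tdTomato- share was 7.06% under stricter cell limits, 6.10% with no *Trdc* count and 6.09% without droplets of high counts. Against lacking cells, genes called higher and lower were 29 and 48 without the endothelial limit, 94 and 80 with ribosomal and mitochondrial genes left out of the total, 134 and 339 from 10 CPM, 401 and 1269 with no minimum, and 184 and 359 at 1.5-fold. *Igfbp4* in the tdTomato+ library had a log2 ratio of -0.28 without the endothelial limit. Against CD4 cells, they were 75 and 212 from 10 CPM, 429 and 1343 with no minimum, 72 and 155 at 1.5-fold, and 23 lower without the endothelial limit. In the split on *Il2rb*, *Cxcr3* and *Ccl5*, 12 were lower from 1 count.

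Between the libraries, genes higher and lower in tdTomato+ cells were 5 and 6 without droplets of high counts, 10 and 53 from 10 CPM, 2146 and 1841 with no minimum, 9 and 36 at 1.5-fold, 6 and 6 without cells with at least 2 counts of *Il2rb*, *Cxcr3* and *Ccl5*, and 6 and 4 in cells with no *Ccl5* count. The marker panel gave 7 lower, leaving out the 7 cells with neutrophil or erythroid counts 4 lower, no endothelial limit 567 higher, thinning 1 higher, and the total without ribosomal and mitochondrial genes 5 higher. Log2 ratios that reversed were *Hba-a1* 1.20, *Hbb-bt* 1.14, *Hbb-bs* 0.94 and *Fcer1g* 0.98 without the endothelial limit, and *Camp* 2.64 and *Lyz2* 1.18 without droplets of high counts. Without cells with counts of *Il2rb*, *Cxcr3* and *Ccl5*, *S100a8* was at 3.10 and *Hbb-bs* at 1.75. In cells with no *Ccl5* count, *S100a8* was at 4.50 and *Hbb-bs* at 1.74. Without the 7 cells, *Camp* was at 1.09, *Hbb-bt* at 1.94, *S100a8* at 1.88 and *Hbb-bs* at 2.11. The intervals of both *Camp* values, of *Hbb-bt* at 1.94 and of *S100a8* at 3.10 included 0. The *Ccl5* alternatives, the 7 cells and the highest droplet of each gene were added after the data were seen.

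The share of Lef1/Ccr7 cells with a count (tdTomato+, then tdTomato-) was 12.3% and 11.1% for *Dapl1* at 1000 UMIs, and 33.8% and 33.9% unthinned. For *Ccl5* it was 29.9% (tdTomato-) at 1000 UMIs, and 39.7% and 51.0% unthinned.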
